A study of Mus musculus with 6 samples.

Results

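The 49 genes described here code for the machinery that condenses, holds and separates chromosomes in mitosis. They were listed by symbol and matched to the Ensembl identifiers of the count table through the GENCODE M21 annotation, in which all 49 were found among 54532 genes. They fall into 8 role groups, namely 4 spindle checkpoint genes, 5 outer kinetochore genes, 6 centromere genes, 5 genes of spindle kinases and a kinase activator, 10 mitotic kinesins, 7 condensin and chromosome genes, 5 genes of cohesion and anaphase onset, and 7 genes of other spindle-associated proteins. RNA of cardiomyocyte (CM) nuclei was sequenced in 6 libraries, 2 for each of 3 AAV9 vectors. All mice were wildtype ICR, received 1e+11 viral genomes under the skin at 6 d of age (P6), and were taken 3 d later at P9. The control vector carried GFP. YAP5SA is YAP, the transcriptional coactivator of the Hippo pathway, with serine-to-alanine changes at the sites that LATS kinases phosphorylate, and YAP6SA carries 1 more such change, which removes its interaction with the TEAD transcription factors. All 3 inserts were driven by the cardiac troponin T (cTnT) promoter, so expression was directed to CMs, and nuclei were enriched with an antibody to PCM-1, a protein that gathers around CM nuclei. The labels give 2 hearts for each virus and number the 2 libraries of each group as replicates 1 and 2. The replicate number was taken as the batch, so each of 2 batches holds 1 library of each group. The labels do not say whether a library is 1 heart, so p-values here measure the spread between libraries.

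In mitosis, condensin and topoisomerase II compact the duplicated chromosomes, the kinetochore built on centromeric chromatin attaches them to spindle microtubules, and the checkpoint holds the anaphase-promoting complex (APC/C) back until every kinetochore is attached. The APC/C then marks securin for destruction, which frees separase to cut cohesin, while kinesins and crosslinking proteins shape the spindle and its midzone. In the mouse heart, CMs leave the cell cycle during the days after birth, and transcripts of these genes are typical of cells in G2 and M phase. Many of their promoters carry a cell cycle homology region (CHR, TTTGAA or TTTAAA), which the DREAM and MuvB complexes bind, and CCAAT boxes, which NF-Y binds, whereas TEAD factors bind GGAATG.

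A RefSeq promoter window of 300 bases, 250 before and 50 after the start (GRCm38.p6), was at hand for 43 members in 46 windows, and none was given for *Dlgap5*, *Esco2*, *Kif20a*, *Smc4*, *Spc24* and *Tpx2*. The 100 bases before the start are shown for 6 members, 4 with well-known roles that increased in YAP5SA and the 2 that did not (*Cenpa* and *Ncapd2*). Each is written 5′ to 3′ on the strand of its gene, with CHR letters (TTTGAA or TTTAAA, or TTCAAA where the match is on the other strand) and CCAAT letters (ATTGG on the other strand) in capitals.
Plk1 (chr7:122159335-122159434, plus strand): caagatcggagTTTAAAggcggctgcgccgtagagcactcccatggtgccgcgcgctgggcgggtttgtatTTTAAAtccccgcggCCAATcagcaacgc
Cdc20 (chr4:118437344-118437443, minus strand): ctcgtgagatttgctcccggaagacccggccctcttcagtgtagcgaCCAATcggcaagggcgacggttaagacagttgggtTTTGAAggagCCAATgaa
Kif11 (chr19:37376282-37376381, plus strand): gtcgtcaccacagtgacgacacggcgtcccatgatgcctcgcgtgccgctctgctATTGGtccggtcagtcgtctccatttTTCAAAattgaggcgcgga
Top2a (chr11:99024190-99024289, minus strand): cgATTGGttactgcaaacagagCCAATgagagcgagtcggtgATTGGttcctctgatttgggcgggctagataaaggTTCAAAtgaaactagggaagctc
Cenpa (chr5:30666786-30666885, plus strand): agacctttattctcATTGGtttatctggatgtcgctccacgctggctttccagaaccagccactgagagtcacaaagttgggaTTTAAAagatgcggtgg
Ncapd2 (chr6:125191587-125191686, minus strand): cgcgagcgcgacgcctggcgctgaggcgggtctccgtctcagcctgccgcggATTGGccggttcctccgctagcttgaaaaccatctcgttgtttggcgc
*Cenpa* had TTTAAA 17 bases before its start, *Kif11* had TTTGAA at 19 bases, and *Ncapd2* had its CHR letters outside the 100 bases shown, 123 bases before its start. The stretches shown are examples and do not stand for all members. *Nuf2*, *Melk*, *Ncaph*, *Mad2l1*, *Nusap1* and *Pttg1* increased in YAP5SA and had neither CHR nor CCAAT letters in their windows of 300 bases. Over the windows of 300 bases, read on both strands, TTTGAA or TTTAAA occurred in 34 of the 46 member windows (73.9%), in 19.4% of the 12875 windows of genes tested here and in 27.6% of all 32851 windows. CCAAT occurred in 76.1% of the member windows, 37.3% of the windows of tested genes and 37.4% of all windows. The TEAD letters GGAATG were in 5 of the 46 (10.9%), beside 12.4% and 14.7%. The E2F letters TTTNNCGC were in 6 (13.0%), beside 8.16% and 5.17%. Matches of different motifs may share bases, and a match is a stretch of letters and not a measured site.

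The libraries held 14552847 to 19615627 gene counts, and a count of 0 allows up to 3 counts, or 0.153 to 0.206 CPM, for counting error alone. CPM are counts relative to library size, here scaled by edgeR's TMM factors, and RPKM, which are CPM per kilobase of exon, are used to compare genes. *Yap1* itself was at 102 to 139 CPM in all 6 libraries, no higher in YAP6SA or YAP5SA than in GFP, and whether reads of the vectors are counted there was not tested. Transcripts of 11 CM markers summed to 54174 and 69720 CPM in GFP, 53512 and 67692 in YAP6SA, and 46570 and 33434 in YAP5SA, each pair in the order of batches 1 and 2, which is kept throughout. Fibroblast markers summed to 872 to 1808 CPM, endothelial to 540 to 869, mural to 340 to 593 and erythroid to 25.1 to 63.8, and no marker of the 6 lists was at 0 in all libraries. Macrophage markers summed to 66.7 and 94.5 CPM in GFP, 81.8 and 111 in YAP6SA, and 98.7 and 144 in YAP5SA. In YAP5SA against GFP, 2 of 11 CM markers fell (*Ryr2* and *Pln*), 2 of 8 macrophage markers rose (*C1qa* and *Lyz2*), 1 of 9 endothelial markers rose (*Fabp4*), 1 of 7 mural markers fell (*Abcc9*), and none of 9 fibroblast or 2 tested erythroid markers passed the threshold, where 12.8% of all tested genes rose and 9.18% fell. In YAP6SA against GFP none of these markers passed it.

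In YAP5SA, 47 of the 49 genes increased over GFP and 0 decreased at an FDR under 0.05 (edgeR quasi-likelihood test over 13323 genes), where 12.8% of all tested genes increased and 9.18% decreased. The median log2 fold change was 1.83, a 3.57-fold rise, beside -0.003 over all tested genes. Single values ran from -0.52 for *Cenpa*, the centromeric histone, to 3.05 for *Melk*, a kinase of dividing cells. Both YAP5SA libraries lay above both GFP libraries for 47 genes and below them for 2, where 31.2% and 29.7% of tested genes did so. In YAP6SA, 0 of the 49 passed the threshold in either direction, where 6 of 13323 genes (0.045%) increased and 0 decreased. The count over all genes depended on the fit, with 54 higher and 28 lower in the likelihood ratio test, 40 and 15 in DESeq2, and 168 and 68 with the 4 GFP and YAP6SA libraries alone. At an unadjusted p under 0.05, 2 members were higher in YAP6SA and 0 lower (3.86% and 2.07% of tested genes), and the likelihood ratio test, DESeq2 and limma-voom also called 0. Both YAP6SA libraries lay above both GFP libraries for 7 members and below them for 4 (17.3% and 17% of tested genes). The median for YAP6SA was 0.10, with 30 values above and 19 below 0. All 49 genes passed the filter on low values (median log2 CPM over 1 in at least 1 group), 45 of them in GFP. *Knl1* and *Cenpk* passed through YAP5SA alone, and *Melk* and *Ncapg* through YAP6SA and YAP5SA. With the filter set on the GFP libraries alone, 43 of 45 increased in YAP5SA.

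The YAP variants were also compared directly. Expression in YAP5SA exceeded that in YAP6SA for 44 of the 49 genes and was below it for 0 (background 9% and 5.68%), and the median of the log2 fold changes was 1.72. The 44 include *Knl1*, which its level in YAP5SA alone let into the test, and *Melk* and *Ncapg*, which did not pass the filter in GFP. These 3 were the only members to lose the call with the filter set on the GFP libraries alone, where they were not tested. Both YAP5SA libraries lay above both YAP6SA libraries for 47 genes and below them for 1 (28.6% and 28.9% of tested genes). The 5 genes that did not pass were *Cenpa*, *Ncapd2*, *Cenpk* (adjusted p = 0.110), *Pttg1* (0.105) and *Hmmr* (0.0589). Leaving out the batch 2 YAP6SA library took this call from more members than leaving out any other library. Among the fits with 1 library left out, it also gave the fewest genes higher in YAP5SA over all tested genes. The members that lost the call in it were *Aurka*, *Cenpf*, *Ckap2l*, *Dlgap5*, *Espl1*, *Kif11*, *Kif18b*, *Kif20a*, *Kif22*, *Kif4*, *Mad2l1*, *Melk*, *Ncapg*, *Ncaph*, *Nek2*, *Nusap1*, *Plk1*, *Prc1*, *Smc2*, *Smc4*, *Spc24*, *Spc25*, *Tpx2*, *Ttk* and *Ube2c*. In a joint test of the 3 groups 45 of the 49 passed, beside 17.6% of tested genes. Both comparisons of YAP5SA use the same YAP5SA libraries, and both comparisons with GFP use the same GFP libraries. The upper bound of the 95% interval for YAP6SA against GFP was under a log2 of 1, a 2-fold rise, for 36 of 49 members, so rises of that size lie outside the interval for those 36 and inside it for the other 13.

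**Figure D1:**
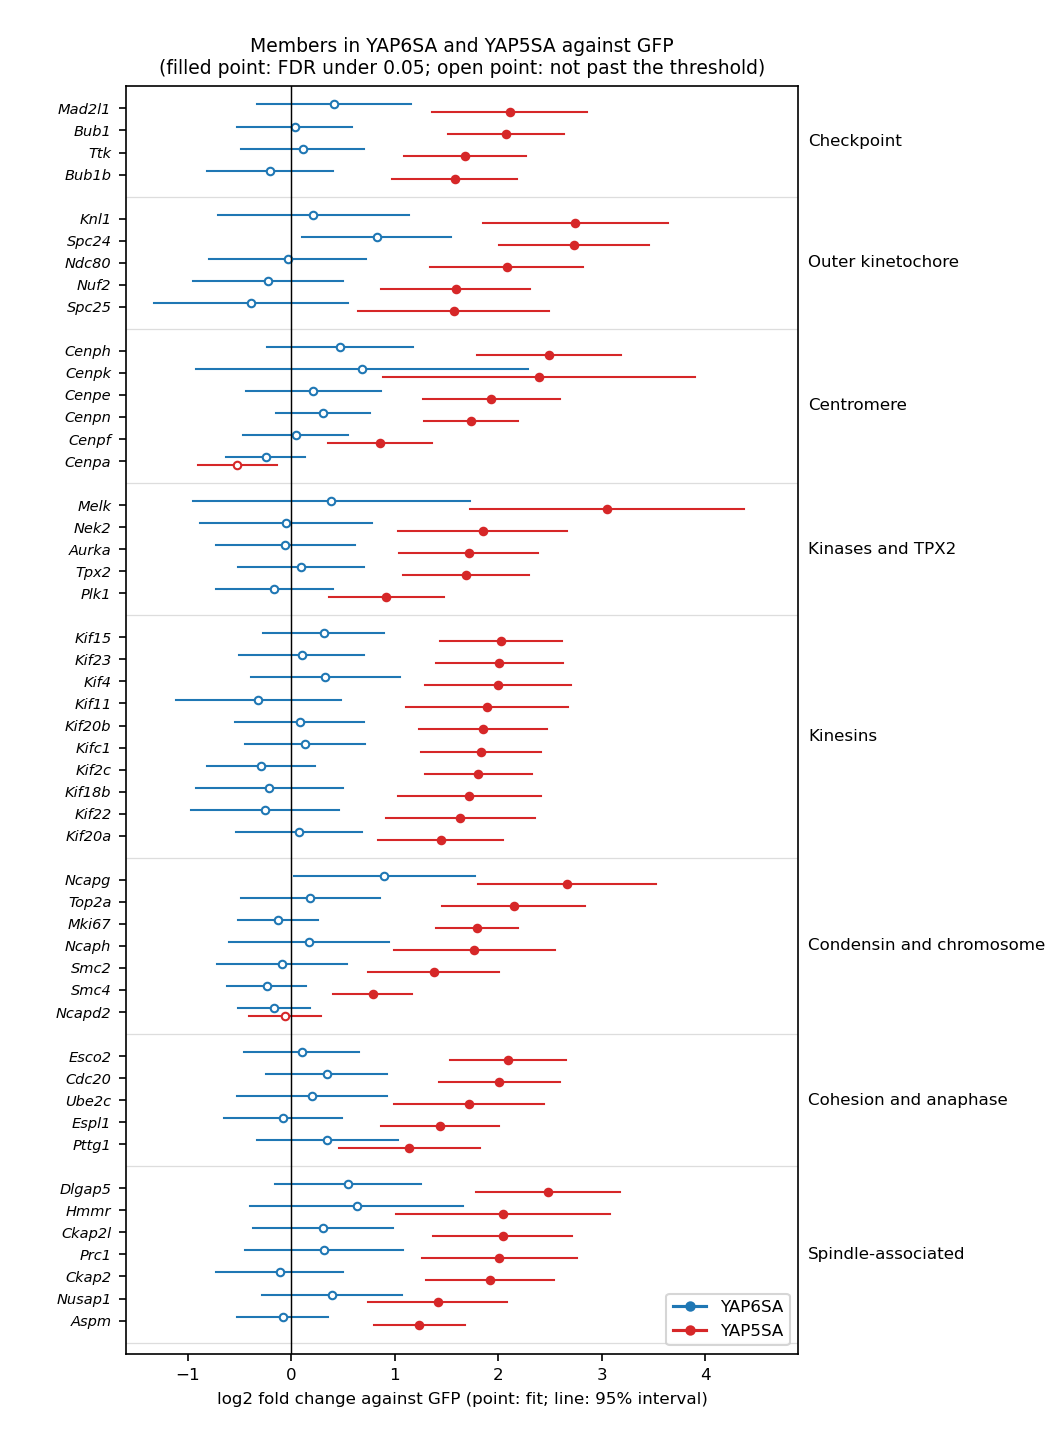
Fitted log2 fold change against GFP (x axis) for the 49 members, by role group, with 95% intervals as lines; blue is YAP6SA, red is YAP5SA, and a filled point passed an FDR of 0.05. For 47 genes the red point is filled and to the right of 0, with *Cenpa* and *Ncapd2* open, and all blue points are open.

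These are bulk libraries of nuclei. More nuclei in the cell cycle, more transcript in each nucleus and a changed mix of cell types cannot be told apart. The rise was larger in batch 2 than in batch 1 for 43 of the 49 genes, with median log2 differences from GFP of 1.42 in batch 1 and 2.26 in batch 2, and it was positive in both batches for 47. GFP was higher in batch 1 than in batch 2 for 39 members and YAP5SA was higher in batch 2 for 42, where 51.1% and 51.5% of all tested genes did so. The batch term itself passed the threshold for 0 members (0.203% of tested genes). Leaving out the batch 2 GFP library took the call from more members than leaving out any other library. Among the fits with 1 library left out, it also gave the fewest genes higher in YAP5SA over all tested genes. The members that lost the call in it were *Aurka*, *Bub1b*, *Cenpf*, *Cenpk*, *Hmmr*, *Kif20a*, *Kif22*, *Ncaph*, *Nek2*, *Nuf2*, *Nusap1*, *Plk1*, *Pttg1*, *Smc2*, *Smc4*, *Spc25* and *Ube2c*. Without the batch 1 GFP library *Cenpf*, *Cenpk* and *Plk1* lost it, and without the batch 2 YAP5SA library *Cenpk*, *Nusap1*, *Plk1*, *Pttg1* and *Spc25* did. For 9 members the fold change itself moved by over 1.5 times with a library left out. With a GFP library left out (batch 2 for the lower value, batch 1 for the higher) the log2 fold change was 1.23 or 3.23 for *Hmmr*, 2.11 or 4.74 for *Melk*, 1.14 or 2.51 for *Ncaph* and 1.08 or 2.18 for *Nuf2*. With a YAP5SA library left out (batch 2 for the lower value, batch 1 for the higher) it was 0.91 or 2.27 for *Kif22*, 1.47 or 2.77 for *Top2a* and 1.11 or 2.26 for *Ube2c*. *Cenpk* was at 1.77 without the batch 1 and 3.30 without the batch 2 GFP library, and *Spc25* at 0.99 without the batch 2 YAP5SA and 2.18 without the batch 1 GFP library. For YAP6SA the batch medians were -0.015 and 0.13, and the overall median of 0.10 ran from -0.13 to 0.35 when single libraries were left out.

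**Figure D2:**
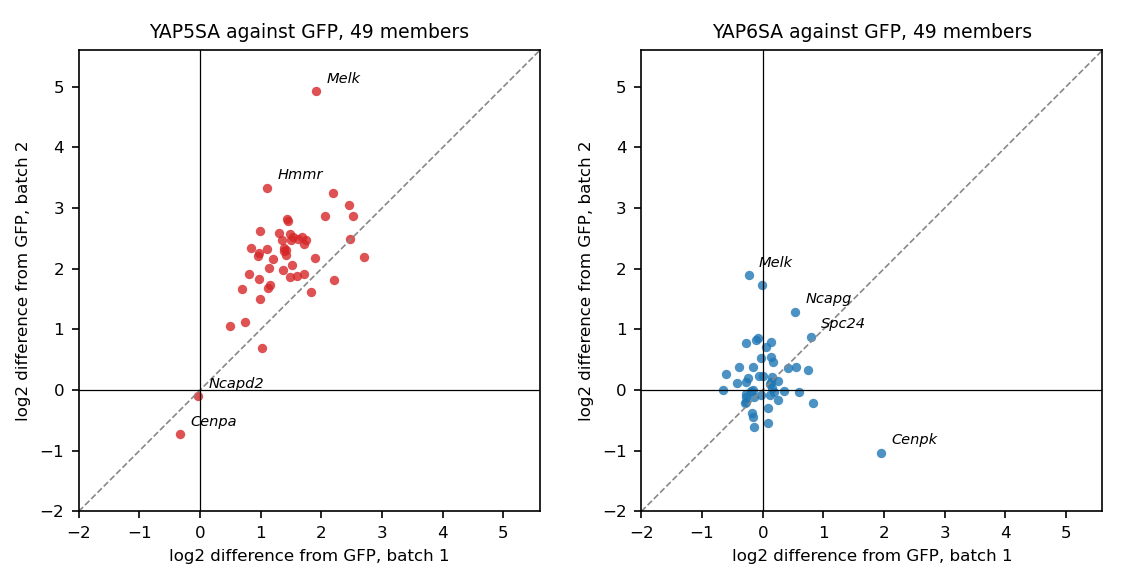
Log2 difference from GFP within batch 1 (x axis) and batch 2 (y axis), 1 point per member, YAP5SA at left and YAP6SA at right, with the dashed line marking equal values. The YAP5SA points lie mostly above the line, with medians of 1.42 and 2.26, whereas the YAP6SA points lie around 0.

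The checkpoint genes increased together in YAP5SA, with 4 of 4 called and a median of 1.88 on the log2 scale. *Bub1* (ENSMUSG00000027379, chr2:127801122-127831865), the kinase that gathers checkpoint proteins at kinetochores, was at 13.7 and 10.3 CPM in GFP, 14.9 and 9.79 in YAP6SA and 44.95 and 54.7 in YAP5SA. Both YAP5SA libraries stood above the other 4, and YAP6SA overlapped GFP. For *Bub1*, the fitted log2 fold change was 2.08 (SE 0.25, adjusted p = 0.000771) for YAP5SA against GFP, 2.04 (SE 0.25, adjusted p = 0.00116) for YAP5SA against YAP6SA, and 0.03 (SE 0.25, adjusted p = 0.995) for YAP6SA against GFP. *Bub1b* (ENSMUSG00000040084, chr2:118598211-118641591), which encodes BUBR1 of the mitotic checkpoint complex, was at 11.6 and 7.22 CPM in GFP, 9.53 and 6.65 in YAP6SA and 25.5 and 29.04 in YAP5SA. Again the YAP5SA libraries were the 2 highest, and the YAP6SA values fell on either side of the lower GFP library. Against GFP, *Bub1b* changed by a fitted log2 1.58 (SE 0.27, adjusted p = 0.00403) in YAP5SA and had a log2 difference of -0.21 (SE 0.27, adjusted p = 0.943) in YAP6SA, and YAP5SA stood 1.79 above YAP6SA (SE 0.27, adjusted p = 0.00301). *Mad2l1*, whose product MAD2 binds CDC20 in the checkpoint complex, lay at 4.36 to 7.55 CPM over the GFP and YAP6SA libraries and at 17.3 and 30.6 CPM in YAP5SA, with a log2 fold change against GFP of 2.11 (SE 0.34, adjusted p = 0.00268). In YAP5SA, *Ttk*, the kinase MPS1 that starts checkpoint signalling, reached 20.7 and 19.3 CPM, from 5.27 to 8.06 CPM in the other 4 libraries, a log2 fold change of 1.68 (SE 0.26, adjusted p = 0.002598) against GFP.

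Of the outer kinetochore genes, 5 of 5 increased in YAP5SA, with a median log2 fold change of 2.08. Differences between role groups were not tested. NDC80 complexes bind microtubules and are anchored by SPC24 and SPC25. *Spc24* (ENSMUSG00000074476, chr9:21755442-21760303) was at 4.401 and 3.45 CPM in GFP, 7.604 and 6.34 in YAP6SA and 20.1 and 32.8 in YAP5SA. Its YAP5SA libraries were far above the rest, and both YAP6SA libraries also lay above both GFP libraries. For *Spc24*, the fitted log2 fold change was 2.73 (SE 0.32, adjusted p = 0.000747) for YAP5SA against GFP, 1.91 (SE 0.31, adjusted p = 0.003899) for YAP5SA against YAP6SA, and 0.82 (SE 0.32, adjusted p = 0.772) for YAP6SA against GFP. The unadjusted p of *Spc24* in YAP6SA was under 0.05. *Nuf2* (ENSMUSG00000026683, chr1:169497934-169531464), the partner of NDC80 in binding microtubules, was at 9.27 and 5.66 CPM in GFP, 6.08 and 6.77 in YAP6SA and 18.2 and 27.03 in YAP5SA. YAP5SA was highest in both batches, while YAP6SA lay within the range of GFP. Against GFP, *Nuf2* changed by a fitted log2 1.59 (SE 0.32, adjusted p = 0.00816) in YAP5SA and had a log2 difference of -0.23 (SE 0.33, adjusted p = 0.947) in YAP6SA, and YAP5SA stood 1.82 above YAP6SA (SE 0.32, adjusted p = 0.00603). *Ndc80*, the microtubule-binding subunit that names the complex, lay at 2.93 to 4.401 CPM over the GFP and YAP6SA libraries and at 14.8 and 16.3 CPM in YAP5SA, with a log2 fold change against GFP of 2.08 (SE 0.33, adjusted p = 0.002699). In YAP5SA, *Spc25*, the partner of SPC24, reached 9.57 and 12.6 CPM, from 2.47 to 5.34 CPM in the other 4 libraries, a log2 fold change of 1.57 (SE 0.41, adjusted p = 0.0237) against GFP. The gene of the scaffold that receives BUB1 and BUBR1, *Knl1*, had 11.2 and 10.8 CPM in YAP5SA against 1.301 to 2.43 CPM elsewhere, and its log2 fold change over GFP was 2.75 (SE 0.40, adjusted p = 0.00181). *Knl1* passed the filter on low values in YAP5SA alone.

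Of the centromere genes, 5 of 6 increased in YAP5SA, with a median of 1.83. *Cenpa* (ENSMUSG00000029177, chr5:30666777-30674830), the histone H3 variant that marks centromeric chromatin, was the exception. Its raw counts were 6723 and 5111 in GFP, 5666 and 4765 in YAP6SA and 4229 and 3598 in YAP5SA, which is 352 and 333 CPM in GFP, 287 and 288 in YAP6SA and 279 and 201 in YAP5SA. Both YAP5SA libraries and both YAP6SA libraries lay below both GFP libraries. For *Cenpa*, the fitted log2 fold change was -0.52 (SE 0.17, adjusted p = 0.0529) for YAP5SA against GFP, -0.28 (SE 0.17, adjusted p = 0.307) for YAP5SA against YAP6SA, and -0.25 (SE 0.17, adjusted p = 0.903) for YAP6SA against GFP. The difference in YAP5SA missed the threshold here but passed it without a filter (adjusted p = 0.0191), in the likelihood ratio test (0.0339), in DESeq2 (0.0367) and in limma-voom (0.0391). In the edgeR quasi-likelihood test it also missed with RLE size factors (adjusted p = 0.0523) and the filter on GFP alone (0.0622). The same held with the 4 libraries compared (0.0932) and without the batch term (0.112). The log2 fold change was -0.75 without the batch 1 YAP5SA library and -0.30 without the batch 2 YAP5SA library. *Cenpn* (ENSMUSG00000031756, chr8:116921730-116941507), whose product recognises CENP-A nucleosomes, was at 12.99 and 12.2 CPM in GFP, 14.6 and 16.8 in YAP6SA and 39.3 and 44.9 in YAP5SA. Unlike *Cenpa*, it had YAP5SA as its 2 highest libraries, and its YAP6SA libraries were a little above GFP. Against GFP, *Cenpn* changed by a fitted log2 1.73 (SE 0.20, adjusted p = 0.000724) in YAP5SA and had a log2 difference of 0.31 (SE 0.20, adjusted p = 0.899) in YAP6SA, and YAP5SA stood 1.42 above YAP6SA (SE 0.20, adjusted p = 0.00213). *Cenph*, a subunit of the constitutive centromere network, lay at 4.19 to 6.13 CPM over the GFP and YAP6SA libraries and at 17.5 and 31.5 CPM in YAP5SA, with a log2 fold change against GFP of 2.49 (SE 0.31, adjusted p = 0.000924). In YAP5SA, *Cenpk*, another subunit of that network, reached 3.76 and 5.64 CPM, from 0.576 to 2.23 CPM in the other 4 libraries, a log2 fold change of 2.39 (SE 0.67, adjusted p = 0.03102) against GFP. *Cenpk* was the least abundant member in GFP, passed the filter in YAP5SA alone, shares 233 bases of exon with *Ppwd1* on the other strand in these unstranded libraries, and had 3.76 CPM as its lower YAP5SA value. The gene of the kinesin CENP-E that moves chromosomes to the spindle equator, *Cenpe*, had 33.5 and 46.1 CPM in YAP5SA against 7.68 to 13.6 CPM elsewhere, and its log2 fold change over GFP was 1.93 (SE 0.30, adjusted p = 0.00229). *Cenpf*, a large kinetochore protein of G2 and M phase, lay at 10.7 to 14.97 CPM over the GFP and YAP6SA libraries and at 21.8 and 24.3 CPM in YAP5SA, with a log2 fold change against GFP of 0.85 (SE 0.23, adjusted p = 0.0244). The *Cenpf* rise was the smallest of the 5. *Cenpf* lost its call without either GFP library, and *Cenpk* did so without either GFP library or the batch 2 YAP5SA library.

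**Figure D3:**
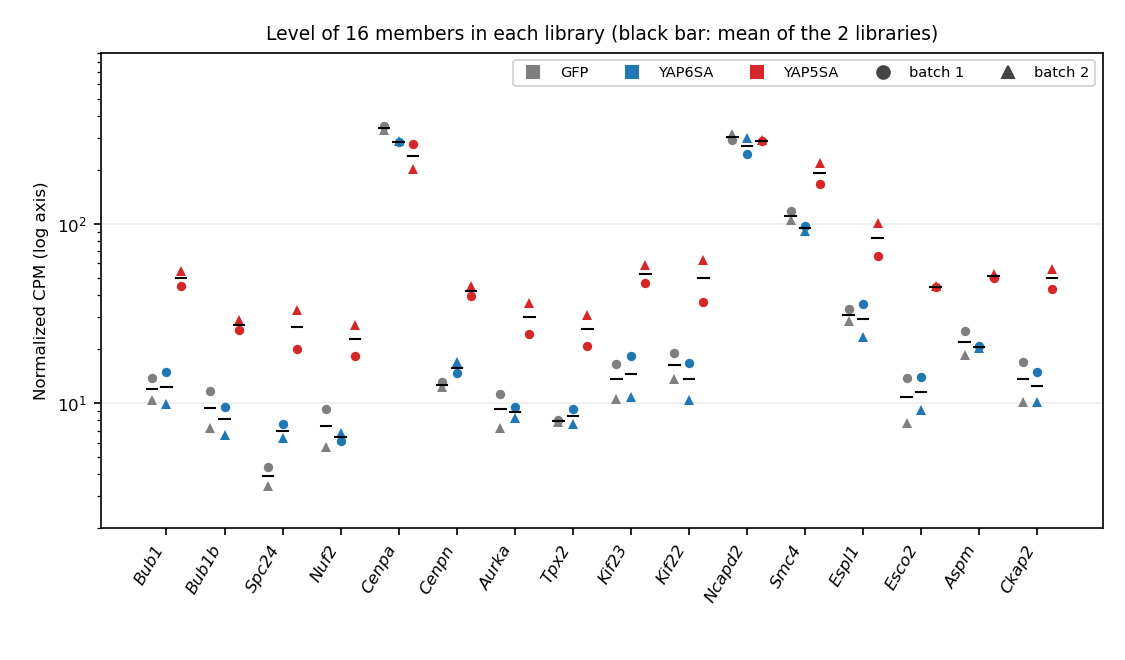
Normalized CPM (log axis) of the 16 members with the highest mean level in their role groups, 2 per group, with circles for batch 1, triangles for batch 2 and black bars for means of 2 libraries. YAP5SA (red) is the highest group for 14 of the 16 genes, whereas *Cenpa* and *Ncapd2* stay between 201 and 352 CPM in all groups.

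All 5 genes of spindle kinases and their activator increased in YAP5SA, with a median of 1.71. *Aurka* (ENSMUSG00000027496, chr2:172356190-172370535), the kinase of spindle poles, was at 11.3 and 7.22 CPM in GFP, 9.48 and 8.28 in YAP6SA and 24.2 and 36.2 in YAP5SA. The YAP5SA libraries were the 2 highest, and YAP6SA lay within the range of GFP. For *Aurka*, the fitted log2 fold change was 1.71 (SE 0.30, adjusted p = 0.00451) for YAP5SA against GFP, 1.77 (SE 0.30, adjusted p = 0.00482) for YAP5SA against YAP6SA, and -0.06 (SE 0.30, adjusted p = 0.987) for YAP6SA against GFP. *Tpx2* (ENSMUSG00000027469, chr2:152847964-152895321), which activates Aurora A on the spindle, was at 8.07 and 7.81 CPM in GFP, 9.23 and 7.61 in YAP6SA and 20.8 and 30.8 in YAP5SA. Its GFP and YAP6SA libraries differed little, and YAP5SA stood above them all. Against GFP, *Tpx2* changed by a fitted log2 1.69 (SE 0.27, adjusted p = 0.002805) in YAP5SA and had a log2 difference of 0.09 (SE 0.27, adjusted p = 0.972) in YAP6SA, and YAP5SA stood 1.60 above YAP6SA (SE 0.27, adjusted p = 0.00482). *Melk*, a kinase of proliferating cells, lay at 0.455 to 3.04 CPM over the GFP and YAP6SA libraries and at 11.4 and 13.9 CPM in YAP5SA, with a log2 fold change against GFP of 3.05 (SE 0.59, adjusted p = 0.00684). The GFP libraries of *Melk* were at 3.04 and 0.455 CPM, and its log2 difference was 1.91 in batch 1 and 4.93 in batch 2. In YAP5SA, *Nek2*, a kinase of centrosome separation, reached 10.7 and 14.3 CPM, from 2.78 to 4.09 CPM in the other 4 libraries, a log2 fold change of 1.85 (SE 0.37, adjusted p = 0.00752) against GFP. The gene of the Polo kinase of mitotic entry and exit, *Plk1*, had 17.2 and 20.8 CPM in YAP5SA against 7.71 to 10.4 CPM elsewhere, and its log2 fold change over GFP was 0.92 (SE 0.25, adjusted p = 0.0274). Leaving out either GFP library or the batch 2 YAP5SA library raised the adjusted p of *Plk1* above 0.05 (to 0.0519, 0.316 and 0.0699 in the edgeR test).

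The 10 mitotic kinesins all increased in YAP5SA, with a median of 1.84 and a range of 1.44 to 2.02, and 0 passed the threshold in YAP6SA. *Kif23* (ENSMUSG00000032254, chr9:61915905-61946774), the centralspindlin motor of the midzone, was at 16.4 and 10.5 CPM in GFP, 18.2 and 10.8 in YAP6SA and 46.5 and 58.6 in YAP5SA. YAP5SA was above all other libraries, and in GFP and YAP6SA alike the batch 1 library was the higher. For *Kif23*, the fitted log2 fold change was 2.01 (SE 0.28, adjusted p = 0.00137) for YAP5SA against GFP, 1.91 (SE 0.27, adjusted p = 0.00228) for YAP5SA against YAP6SA, and 0.10 (SE 0.27, adjusted p = 0.969) for YAP6SA against GFP. *Kif22* (ENSMUSG00000030677, chr7:127027729-127042471), a chromokinesin that pushes chromosome arms, was at 18.9 and 13.5 CPM in GFP, 16.7 and 10.4 in YAP6SA and 36.4 and 62.8 in YAP5SA. Both YAP5SA libraries were above the other 4, with batch 2 the highest. Against GFP, *Kif22* changed by a fitted log2 1.63 (SE 0.32, adjusted p = 0.00736) in YAP5SA and had a log2 difference of -0.26 (SE 0.32, adjusted p = 0.937) in YAP6SA, and YAP5SA stood 1.89 above YAP6SA (SE 0.33, adjusted p = 0.00535). *Kif11*, the motor that pushes spindle poles apart, lay at 2.36 to 7.18 CPM over the GFP and YAP6SA libraries and at 19.2 and 17.8 CPM in YAP5SA, with a log2 fold change against GFP of 1.89 (SE 0.35, adjusted p = 0.00562). In YAP5SA, *Kif15*, which helps hold the poles apart, reached 45.7 and 52.9 CPM, from 8.91 to 17.996 CPM in the other 4 libraries, a log2 fold change of 2.02 (SE 0.27, adjusted p = 0.001105) against GFP. *Kifc1*, a minus-end motor that focuses poles, lay at 8.59 to 13.5 CPM over the GFP and YAP6SA libraries and at 33.01 and 40.2 CPM in YAP5SA, with a log2 fold change against GFP of 1.83 (SE 0.26, adjusted p = 0.00157). Kinesins that act on microtubule ends also increased. The gene of the depolymerase MCAK, *Kif2c*, had 29.9 and 34.6 CPM in YAP5SA against 6.83 to 9.24 CPM elsewhere, and its log2 fold change over GFP was 1.81 (SE 0.23, adjusted p = 0.001003). In YAP5SA, *Kif18b*, a regulator of astral microtubules, reached 15.3 and 14.6 CPM, from 3.26 to 4.75 CPM in the other 4 libraries, a log2 fold change of 1.72 (SE 0.31, adjusted p = 0.00502) against GFP. So did those of the midzone and cytokinesis. *Kif20a*, which brings the chromosomal passenger complex to the midzone, lay at 6.51 to 7.61 CPM over the GFP and YAP6SA libraries and at 15.3 and 21.6 CPM in YAP5SA, with a log2 fold change against GFP of 1.44 (SE 0.27, adjusted p = 0.005797). In YAP5SA, *Kif20b*, a kinesin of cytokinesis, reached 24.5 and 31.7 CPM, from 6.25 to 9.38 CPM in the other 4 libraries, a log2 fold change of 1.85 (SE 0.28, adjusted p = 0.00206) against GFP. The gene of a chromokinesin that works with PRC1, *Kif4*, had 19.3 and 18.3 CPM in YAP5SA against 4.19 to 7.45 CPM elsewhere, and its log2 fold change over GFP was 2.00 (SE 0.32, adjusted p = 0.00267). *Kif20a* and *Kif4* share 1271 and 832 bases of exon with *Cdc23* and *Pdzd11* on the other strand, so their counts are uncertain to that extent.

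Of the 7 condensin and chromosome genes, 6 increased in YAP5SA, with a median of 1.77, and within condensin I 1 subunit gene, *Ncapd2*, did not pass. *Ncapd2* (ENSMUSG00000038252, chr6:125168007-125191701), the HEAT-repeat subunit of condensin I, was at 294 and 315 CPM in GFP, 244 and 299.6 in YAP6SA and 288 and 294 in YAP5SA, or 305 ± 14.5, 272 ± 39.4 and 291 ± 4.24 CPM (mean ± SD, n = 2). Its 3 groups overlapped in part, with both YAP5SA libraries just below both GFP libraries. For *Ncapd2*, the fitted log2 fold change was -0.06 (SE 0.16, adjusted p = 0.7999) for YAP5SA against GFP, 0.11 (SE 0.16, adjusted p = 0.696) for YAP5SA against YAP6SA, and -0.17 (SE 0.16, adjusted p = 0.927) for YAP6SA against GFP. The 95% interval of the YAP5SA change ran from -0.41 to 0.28, which leaves out a rise or fall of 2-fold. *Ncapd2* shares 237 bases of exon with *Scarna10* on the same strand, which had 0 counts in all libraries. *Smc4* (ENSMUSG00000034349, chr3:69004738-69034623), an ATPase shared by both condensins, was at 118 and 104 CPM in GFP, 97.5 and 90.6 in YAP6SA and 166 and 218 in YAP5SA. YAP5SA was the highest and YAP6SA the lowest group, with no overlap. Against GFP, *Smc4* changed by a fitted log2 0.78 (SE 0.17, adjusted p = 0.0118) in YAP5SA and had a log2 difference of -0.24 (SE 0.17, adjusted p = 0.905) in YAP6SA, and YAP5SA stood 1.02 above YAP6SA (SE 0.17, adjusted p = 0.00484). *Smc2*, the ATPase that pairs with SMC4, lay at 10.99 to 17.2 CPM over the GFP and YAP6SA libraries and at 29.9 and 41.6 CPM in YAP5SA, with a log2 fold change against GFP of 1.38 (SE 0.28, adjusted p = 0.00869). In YAP5SA, *Ncaph*, the kleisin of condensin I, reached 22.97 and 40.2 CPM, from 6.51 to 11.6 CPM in the other 4 libraries, a log2 fold change of 1.77 (SE 0.35, adjusted p = 0.00731) against GFP. *Ncapg*, another HEAT-repeat subunit of condensin I, lay at 1.43 to 3.504 CPM over the GFP and YAP6SA libraries and at 11.4 and 10.4 CPM in YAP5SA, with a log2 fold change against GFP of 2.67 (SE 0.39, adjusted p = 0.00177). The log2 fold change of *Ncapg* in YAP6SA was 0.90, the largest of the 49 and under 0.05 in its unadjusted p, with an adjusted p of 0.837, and its exons share 944 bases with *Lcorl* on the other strand. The gene of topoisomerase II alpha, which untangles sister chromatids, *Top2a*, had 56.9 and 85.3 CPM in YAP5SA against 12.4 to 23.4 CPM elsewhere, and its log2 fold change over GFP was 2.15 (SE 0.31, adjusted p = 0.001698). In YAP5SA, *Mki67*, the proliferation marker that coats mitotic chromosomes, reached 156 and 235 CPM, from 49.9 to 56.1 CPM in the other 4 libraries, a log2 fold change of 1.80 (SE 0.18, adjusted p = 0.000294) against GFP.

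*Cenpa*, *Ncapd2* and *Smc4* were the 3 most abundant members in GFP per length, at 58.4, 48.6 and 21.3 RPKM, whereas the other 46 lay between 0.173 and 5.51 RPKM. With the longest transcript as the length, the same 3 genes were at 90.0, 65.8 and 25.7 RPKM. They held 60.5% and 66.5% of the summed member CPM in GFP, 55.6% and 62.1% in YAP6SA, and 36.1% and 29.5% in YAP5SA. The other 46 summed to 499.6 and 379 CPM in GFP, 502 and 415 in YAP6SA, and 1295 and 1705 in YAP5SA. This grouping was made after the values were seen and carries no test.

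**Figure D4:**
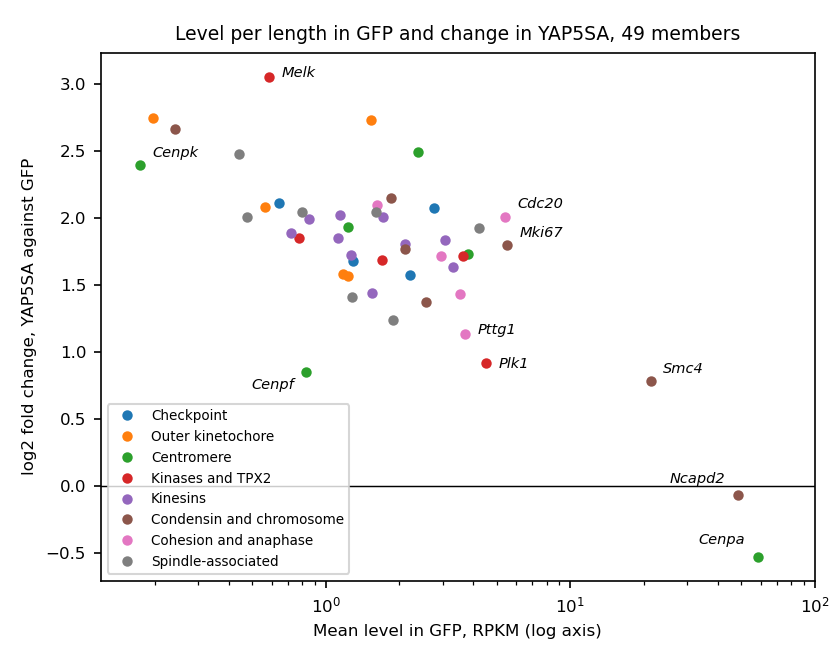
Mean level in GFP in RPKM (x axis, log scale) against the log2 fold change of YAP5SA over GFP (y axis), 1 point per member, coloured by role group. *Ncapd2* and *Cenpa*, at 48.6 and 58.4 RPKM, are the 2 points below 0.

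**Figure D5:**
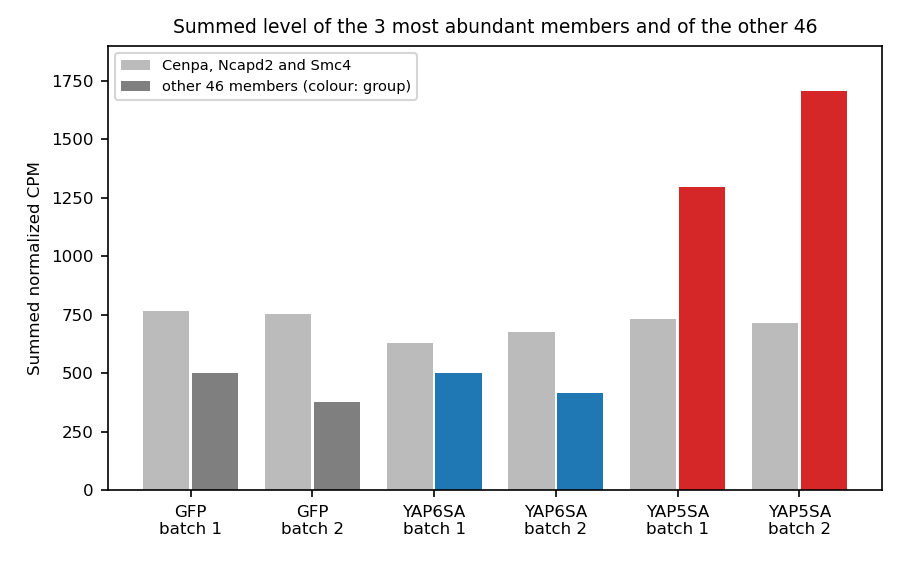
Summed normalized CPM in each library, with grey bars at left of each pair for *Cenpa*, *Ncapd2* and *Smc4*, and bars at right for the other 46 members, coloured by group. The right bars stand at 379 to 502 CPM in GFP and YAP6SA and at 1295 and 1705 CPM in YAP5SA.

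Genes of cohesion and anaphase onset increased in YAP5SA in 5 of 5 cases, with a median of 1.72. *Espl1* (ENSMUSG00000058290, chr15:102296266-102324357), the separase that cuts cohesin, was at 33.5 and 28.6 CPM in GFP, 35.5 and 23.3 in YAP6SA and 65.7 and 101 in YAP5SA. YAP5SA was the highest group in both batches, and the YAP6SA libraries lay on either side of GFP. For *Espl1*, the fitted log2 fold change was 1.44 (SE 0.26, adjusted p = 0.004901) for YAP5SA against GFP, 1.52 (SE 0.26, adjusted p = 0.00506) for YAP5SA against YAP6SA, and -0.08 (SE 0.26, adjusted p = 0.973) for YAP6SA against GFP. *Esco2* (ENSMUSG00000022034, chr14:65819038-65833994), which acetylates cohesin as sister chromatids are joined, was at 13.8 and 7.74 CPM in GFP, 13.9 and 9.06 in YAP6SA and 44.1 and 44.6 in YAP5SA. The YAP5SA libraries nearly coincided, above all others. Against GFP, *Esco2* changed by a fitted log2 2.10 (SE 0.25, adjusted p = 0.000759) in YAP5SA and had a log2 difference of 0.10 (SE 0.25, adjusted p = 0.966) in YAP6SA, and YAP5SA stood 2.00 above YAP6SA (SE 0.25, adjusted p = 0.00128). *Pttg1*, which encodes securin, the inhibitor of separase, lay at 5.53 to 9.97 CPM over the GFP and YAP6SA libraries and at 14.98 and 17.5 CPM in YAP5SA, with a log2 fold change against GFP of 1.14 (SE 0.31, adjusted p = 0.0256). The gene of the APC/C activator that the checkpoint restrains, *Cdc20*, had 37.3 and 42.8 CPM in YAP5SA against 7.42 to 13.3 CPM elsewhere, and its log2 fold change over GFP was 2.01 (SE 0.26, adjusted p = 0.001105). In YAP5SA, *Ube2c*, the ubiquitin-conjugating enzyme of the APC/C, reached 18.9 and 32.002 CPM, from 7.07 to 10.6 CPM in the other 4 libraries, a log2 fold change of 1.72 (SE 0.32, adjusted p = 0.00602) against GFP. On the other strand, *Cdc20* shares 53 bases of exon with *Elovl1*, and *Ube2c* shares 592 with *Tnnc2*, which had 0 counts in all libraries.

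The 7 other spindle-associated genes all increased in YAP5SA, with a median of 2.01. *Aspm* (ENSMUSG00000033952, chr1:139454772-139494091), a protein of spindle poles, was at 25.1 and 18.4 CPM in GFP, 20.7 and 20.1 in YAP6SA and 49.9 and 52.1 in YAP5SA. Its YAP5SA libraries were close to each other and above all others, and YAP6SA lay within the range of GFP. For *Aspm*, the fitted log2 fold change was 1.24 (SE 0.20, adjusted p = 0.00268) for YAP5SA against GFP, 1.33 (SE 0.20, adjusted p = 0.00272) for YAP5SA against YAP6SA, and -0.09 (SE 0.20, adjusted p = 0.963) for YAP6SA against GFP. *Ckap2* (ENSMUSG00000037725, chr8:22168160-22185819), a microtubule stabiliser, was at 16.97 and 10.2 CPM in GFP, 14.9 and 10.1 in YAP6SA and 43.4 and 56.1 in YAP5SA. In both GFP and YAP6SA the batch 1 library was higher, and YAP5SA was above them all. Against GFP, *Ckap2* changed by a fitted log2 1.92 (SE 0.28, adjusted p = 0.00172) in YAP5SA and had a log2 difference of -0.12 (SE 0.27, adjusted p = 0.963) in YAP6SA, and YAP5SA stood 2.04 above YAP6SA (SE 0.28, adjusted p = 0.00188). *Ckap2l*, a relative of CKAP2, lay at 4.89 to 7.65 CPM over the GFP and YAP6SA libraries and at 18.9 and 22.6 CPM in YAP5SA, with a log2 fold change against GFP of 2.04 (SE 0.30, adjusted p = 0.00187). In YAP5SA, *Dlgap5*, the microtubule-bundling protein HURP, reached 15.6 and 17.98 CPM, from 2.83 to 4.77 CPM in the other 4 libraries, a log2 fold change of 2.48 (SE 0.31, adjusted p = 0.000911) against GFP. The gene of a spindle assembly protein that also binds hyaluronan, *Hmmr*, had 14.9 and 17.8 CPM in YAP5SA against 1.76 to 6.92 CPM elsewhere, and its log2 fold change over GFP was 2.05 (SE 0.47, adjusted p = 0.0133). The batch 2 GFP library of *Hmmr* was at 1.76 CPM and the batch 1 library at 6.92 CPM. *Prc1*, the crosslinker of antiparallel midzone microtubules, lay at 2.86 to 5.07 CPM over the GFP and YAP6SA libraries and at 15.1 and 16.1 CPM in YAP5SA, with a log2 fold change against GFP of 2.01 (SE 0.34, adjusted p = 0.00353). In YAP5SA, *Nusap1*, which links microtubules near chromosomes, reached 11.02 and 16.98 CPM, from 5.08 to 6.79 CPM in the other 4 libraries, a log2 fold change of 1.41 (SE 0.30, adjusted p = 0.0103) against GFP. *Nusap1* and *Prc1* share exon bases with *Oip5* and *Rccd1* on the other strand.

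The other genes of the pathway were taken from 11 lists of 126 genes, of which 121 were tested. In YAP5SA, 41 of the 121 increased over GFP and 6 decreased (background 12.8% and 9.18%), and the median log2 fold change was 0.40. The 41 include genes, *Kif24* and *Cdca5* among them, that passed the filter on low values in YAP5SA alone. Their rise itself let them into the test. In YAP6SA, 0 passed in either direction, and YAP5SA was higher than YAP6SA for 37 and lower for 2 (background 9% and 5.68%). Without the batch 2 GFP library fewer of these genes passed in YAP5SA against GFP, as was so over all tested genes. Of the other checkpoint genes 5 of 9 increased, led by *Trip13*, which remodels MAD2 (log2 fold change 2.05). Of the other kinetochore genes 6 of 7 increased, led by *Ska1* of the SKA microtubule coupler (2.63), which was at 8.22 and 4.29 CPM in GFP, 8.06 and 8.64 in YAP6SA and 29.2 and 49.3 in YAP5SA. Of the other centromere genes 7 of 16 increased, with *Cenps* the largest (2.33). Of the chromosomal passenger complex and shugoshin genes 5 of 6 increased, with *Cdca8*, which encodes borealin, the largest (2.13). Of the other mitotic kinesins 3 of 4 increased (*Kif24* 1.58), and *Kif2b* had 0 counts. *Kif24* was at 1.57 and 1.95 CPM in GFP, 1.22 and 1.57 in YAP6SA and 5.74 and 4.75 in YAP5SA.

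Differences between lists were not tested, and some of the shares that follow are near the background of 12.8% higher and 9.18% lower. Of the transport kinesins 1 of 17 increased (*Kif9*, 2.47) and 4 decreased (largest *Kif1b*, a motor of mitochondria and synaptic vesicles, -0.78). Of the 3 condensin II genes 1 increased (*Ncapg2*, 1.47). Of 13 cohesin genes 2 increased, with *Cdca5*, which encodes sororin, the largest (2.34). *Cdca5* was at 1.15 and 0.651 CPM in GFP, 0.912 and 0.544 in YAP6SA and 2.11 and 7.99 in YAP5SA. It passed the filter on low values in YAP5SA alone. Of 17 APC/C genes 2 increased, with *Ube2s* the largest (1.01). None of the 4 other topoisomerase genes listed passed in either direction. Of 25 other spindle genes 9 increased, with *Spag5*, which encodes astrin, the largest (2.45), and 2 decreased, with *Clasp1*, a microtubule plus-end protein, the largest (-0.70). The list medians ran from -0.20 for the transport kinesins to 1.66 for the passenger complex. Summed macrophage markers, given above, were higher and summed CM markers lower in both YAP5SA libraries than in both GFP libraries. Within each batch the macrophage sum was also higher in YAP6SA than in GFP. The part of these cell types in the changes of the members and of the lists was not tested.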

How the data were processed

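Poly-A RNA of PCM-1-bound nuclei was sequenced from libraries that keep no strand. The authors mapped reads with STAR to mm10 (Ensembl 94) and deposited raw counts per gene, unnormalized and unfiltered, for 6 libraries, of which all columns were used. Reads outside genes (9.43% to 9.84% of a library), ambiguous (5.79% to 6.31%), multimapping or unmapped are not in these counts, and paralogs could share the multimapping ones.

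Symbols, coordinates and exon lengths came from GENCODE M21 (GRCm38), which named 54495 of 54532 genes. Groups came from the sample labels. Genes with a median log2 CPM over 1 in at least 1 group (13323) entered 1 quasi-likelihood model of all 6 libraries with group and batch terms and TMM scaling (edgeR 4.0.16, R 4.3.3), following the filter and batch covariate of the study's methods. Fewer genes passed in YAP6SA against GFP here than the study reports for YAP6SA at the same FDR threshold, and the reason was not tested. P-values were adjusted by Benjamini-Hochberg across the whole table, and 0.05 was the threshold. SE is the log2 fold change divided by the square root of F, and intervals are 95%. The replicate number in the labels was used as the batch number, and in the fit it pairs the libraries. Deviations of same-batch libraries from their group means correlated across genes at 0.368 (GFP and YAP6SA), 0.0985 (GFP and YAP5SA) and 0.175 (YAP6SA and YAP5SA). The chi-square between replicates was 25.3 to 39.6 for each degree of freedom, far above counting noise, so none was a copy.

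The members and lists were chosen with earlier results of these data known. Values in every library are given for the 2 members of each role group with the highest mean CPM, and from each pathway list the largest rise and the largest fall past the threshold are named, with marker genes that passed it. Alternatives were RLE size factors, no filter or a filter on GFP alone, the likelihood ratio test, DESeq2 1.42.0, limma-voom (limma 3.58.1), no batch term, the 4 libraries compared, a stricter threshold of 0.01, and fits that omit 1 library. Figures were drawn with matplotlib 3.10.9.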

Additional observations from a re-analysis of the deposited data

How the results depend on the processing

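No alternative called any of the 49 members in YAP6SA against GFP. Over all genes, the number higher in YAP6SA was 6 and ran from 0 (no batch term) to 168 (the 4 libraries compared), and the number lower was 0 and ran from 0 to 68 over the same settings. For YAP5SA against GFP, the members called higher ran from 30 (without the batch 2 GFP library) to 47 over the libraries left out, and were 39 at a threshold of 0.01, and over all genes the number higher was 1708 and ran from 591 to 2538. For YAP5SA against YAP6SA, the members called higher were 44, and their number depended on the library left out. It was lowest without the batch 2 YAP6SA library, as was the number higher over all tested genes. Without the replicate block, that is without the batch term that pairs the libraries, the members called were 47 against GFP and 42 against YAP6SA, with *Cenpf* and *Nusap1* lost. The number of members called lower against GFP was 1 (*Cenpa*) with no filter, the likelihood ratio test, DESeq2 and limma-voom, and 0 to 1 over the libraries left out, as it was against YAP6SA. The batch term called some members when a YAP5SA library was missing, and it then also called more of all tested genes than with all 6 libraries. A fit with 1 library left out assumes that the lone library of that group varies like the others.

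The median for YAP6SA against GFP ran from -0.13 (without the batch 2 GFP library) to 0.35 (without the batch 1 GFP library), so its direction depends on single libraries. Single genes in YAP6SA against GFP also changed sign with a library left out, with log2 ranges of -0.28 to 0.28 for *Bub1*, -0.45 to 0.084 for *Bub1b*, -0.71 to 0.37 for *Nuf2*, -0.44 to 0.42 for *Aurka*, -0.21 to 0.34 for *Tpx2*, -0.25 to 0.37 for *Kif23*, -0.75 to 0.11 for *Kif22*, -0.53 to 0.28 for *Espl1*, -0.15 to 0.41 for *Esco2*, -0.30 to 0.16 for *Aspm* and -0.41 to 0.26 for *Ckap2*. *Ncapd2* ran from -0.15 to 0.027 in YAP5SA against GFP and from -0.0087 to 0.23 against YAP6SA.

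Of the pathway genes, those higher in YAP5SA than in GFP ran from 19 to 47 over the libraries left out and were 25 at a threshold of 0.01. Those lower ran from 0 to 7 over the libraries left out, and were 3 without the replicate block, 2 with the 4 libraries compared and 0 at 0.01. Against YAP6SA, those higher ran from 10 to 42 over the libraries left out and were 21 at 0.01, and those lower ran from 0 to 6 and were 4 in the likelihood ratio test and 1 at 0.01. Over all tested genes the numbers called also varied with the library left out, in both comparisons and both directions. At a threshold of 0.01, all tested genes called against GFP were 803 higher and 314 lower, from 1708 and 1223 at 0.05. Against YAP6SA they were 537 and 123, from 1199 and 757. The ranges above are therefore not a property of the pathway genes alone. The causes of these differences between settings were not tested. With 2 libraries per group and few counts, the widest intervals against GFP were those of *Cenpk* and *Melk*.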
